A study of Mus musculus with 6 samples.

Results

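The transcripts of the mitochondrial genome were measured in 4T1, a mammary carcinoma line from the mouse that grows and spreads as tumours in its host strain. The 37 members are the genes on the mitochondrial chromosome (symbols starting mt-) among the 26094 genes of the deposited table, comprising 13 mRNAs, 2 rRNAs and 22 tRNAs, and every annotated mitochondrial gene was listed with 1 transcript. In 3 libraries the cells stably carried the lentiviral vector PLVX-ires-neo with mouse Limch1 (Limch1_OE), and in 3 libraries they carried the vector control (Vector). Both groups had been infected with virus packaged in HEK293T cells, a human kidney line, and selected with antibiotic, and both were grown in the same serum-containing medium. Nothing in the labels ties the libraries of a group to separate infections, clones or cultures. The p-values therefore reflect differences among these particular libraries and may be technical. LIMCH1 is an actin-associated protein that binds non-muscle myosin II.

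The mitochondrial chromosome is a small circle that encodes core subunits of respiratory complexes I, III, IV and V, together with the rRNAs and tRNAs that translate them inside the organelle. In mammals both strands are transcribed as long RNAs by the polymerase POLRMT with TFAM and TFB2M. The tRNAs lie between most of the other genes, and cutting at their ends by the mitochondrial RNase P and ELAC2 releases the rRNAs and mRNAs. Most of the mRNAs are then polyadenylated and held by the LRPPRC and SLIRP proteins. Degradation is by the exonuclease PNPase (Pnpt1) with the helicase SUPV3L1, so genes of 1 precursor can differ in level.

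Values are FPKM, fragments normalised for transcript length and library size by the authors, and the depth behind them is unknown. The sums of FPKM lay between 421767 and 425064 in Limch1_OE and between 414837 and 416242 in Vector. Limch1 itself was at 23.96, 23.31 and 25.69 FPKM in Limch1_OE, against 0.25, 0.15 and 0.1 FPKM in Vector. All 8 epithelial markers were tested, and 1 rose (Krt7, 0.37), 3 fell (Cldn7 at -1.65, Epcam at -0.44 and Cdh1 at -0.18) and 4 did not pass, among them Krt8 and Krt18, which averaged 308 and 603 FPKM in Limch1_OE, against 327 and 545 FPKM in Vector. Their summed level was 2005 to 2267 FPKM in Limch1_OE and 2176 to 2227 FPKM in Vector, and the part of these marker changes in the mitochondrial results was not tested. All 4 fibroblast, 5 endothelial and 2 adipocyte or muscle markers listed were below 1 FPKM in every library, as were 5 of 6 listed leukocyte markers, the exception being Cd14. The leukocyte markers summed to 4.84 to 5.6 FPKM in Limch1_OE and 6.11 to 6.76 FPKM in Vector, and the pan-leukocyte gene Ptprc did not exceed 0.01 FPKM.

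The messenger RNAs of the mitochondrial genome were higher in the Limch1-expressing cells, with 1 exception, mt-Co1. Together the 13 mRNAs held 8.20, 5.89 and 6.04% of the FPKM sum in the Limch1_OE libraries, replicates 1 to 3, against 5.10, 4.39 and 4.42% in the Vector libraries in the same order. The groups did not overlap, and replicate 1 was the highest library in both. The means were 6.71 ± 1.29% in Limch1_OE, against 4.64 ± 0.40% in Vector (n = 3 each, SD), with an exact two-sided permutation p of 0.1, the smallest that 3 libraries against 3 allow. Without Limch1_OE replicate 1 the difference was 1.33 percentage points in place of 2.07. These shares leave out the near-identical nuclear copies described below, and with the copies added to their genes the difference was 2.89 percentage points. With mt-Co1 left out of the sum, the other mRNAs totalled 19933 ± 3669 FPKM in Limch1_OE, against 11496 ± 876 FPKM in Vector, a ratio of 1.73. As these are shares of the sequenced RNA, more mitochondrial RNA per cell and less of other RNA cannot be told apart, and mitochondrial DNA was not analysed here.

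Across all genes, 34.6% of 11842 tested genes passed the test at an adjusted p of 0.05 (limma on log2(FPKM + 1), Benjamini-Hochberg adjusted), 20.2% higher and 14.4% lower in Limch1_OE, with a median log2 fold change of 0.04. All log2 fold changes below are on this log2(FPKM + 1) scale. All 37 mitochondrial genes met the filter of 1 FPKM in at least 3 libraries, and of them 22 rose, 4 fell and 11 did not pass. Among the 13 mRNAs 12 rose and none fell. The libraries of the groups did not overlap for 25 of the 37 genes and 12 of the 13 mRNAs, beside 49.1% of all tested genes. When the libraries were scaled by the trimmed mean of M values, the split over all genes moved to 48.3% of calls higher, in place of 58.3%, and the same 12 mRNAs were called higher.

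**Figure D1:**
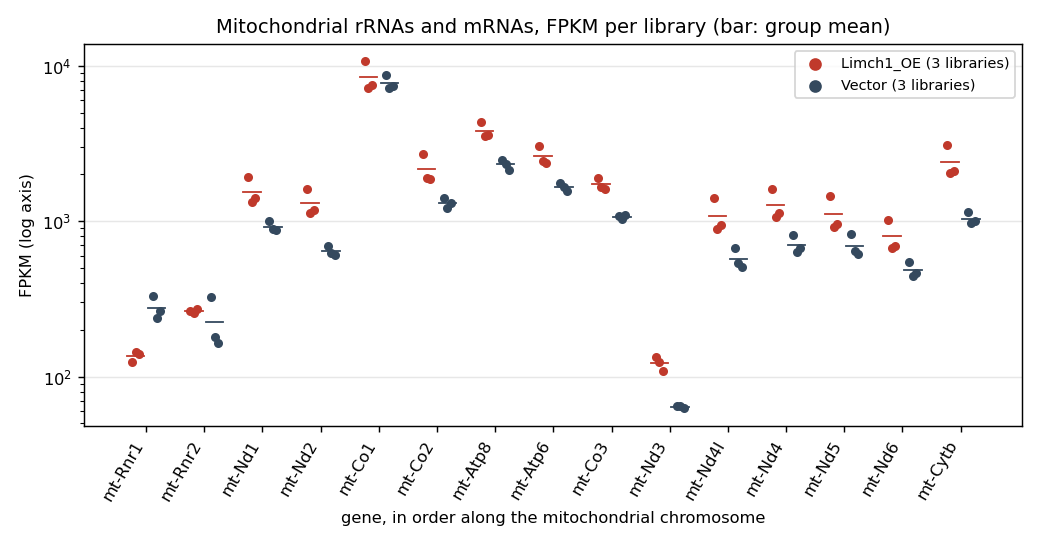
FPKM of the 2 rRNAs and 13 mRNAs in each library, on a log axis, in gene order along the chromosome, with Limch1_OE in red on the left of each pair, Vector in grey-blue on the right and a bar at each group mean. The groups do not overlap for 12 mRNAs, all with Limch1_OE higher, whereas the mt-Co1 libraries overlap and mt-Rnr1 is lower in Limch1_OE.

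Complex I, the entry point of electrons from NADH, has its mitochondrial subunits encoded by mt-Nd1 to mt-Nd6 and mt-Nd4l. All 7 rose, by 0.65 to 1.004, and their summed level was 9141, 6122 and 6434 FPKM in Limch1_OE, against 4613, 3844 and 3805 FPKM in Vector. mt-Nd2 (ENSMUSG00000064345, mm10 chrM:3914-4951, plus strand) was at 1607, 1122 and 1173 FPKM in Limch1_OE, against 690, 622 and 609 FPKM in Vector. It had the highest fold change of the complex, 1.004 (SE 0.13, adjusted p = 5.42e-04 in limma). mt-Nd3 had by far the lowest level of any mRNA, with 135, 123 and 109 FPKM in Limch1_OE, against 65.1, 64.6 and 62.7 FPKM in Vector. It rose by 0.92 on the log2 scale (SE 0.07, adjusted p = 2.86e-05 in limma), and its libraries in Vector lay close together. The other complex I mRNAs on the plus strand rose by 0.90 for mt-Nd4l, 0.83 for mt-Nd4, 0.73 for mt-Nd1 and 0.65 for mt-Nd5. The mt-Nd5 call ended without Vector replicate 2, without Vector replicate 3 or without the filter on low values, with the adjusted p between 8.62e-04 and 0.1003 over the alternatives.

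mt-Nd6 is the 1 mRNA encoded on the minus strand (chrM:13552-14070), and its precursor is otherwise made up of tRNAs and antisense sequence. It was at 1025, 675 and 695 FPKM in Limch1_OE, against 547, 447 and 462 FPKM in Vector, and rose by 0.70 (SE 0.15, adjusted p = 0.00830 in limma), a call that ended without the filter on low values (adjusted p = 0.0576). Set against the 12 plus-strand mRNAs in the same library, it stood at 3.03, 2.78 and 2.80% of their sum in Limch1_OE and at 2.65, 2.51 and 2.58% in Vector. The groups did not overlap (exact permutation p = 0.1), a log2 difference of 0.15 that turned to -0.05 when the median of the 12 replaced their sum. The direction of this strand ratio therefore depends on the denominator. Whether the authors' counting used strand is not given in the sources used here, so reads of mt-Nd6 and of RNA antisense to it cannot be told apart.

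Cytochrome b, the product of mt-Cytb (ENSMUSG00000064370, chrM:14145-15288, plus strand), is the core of complex III and its only subunit encoded here. It showed the highest fold change of the 13 mRNAs, 1.19 (SE 0.15, adjusted p = 4.97e-04 in limma), at 3078, 2052 and 2095 FPKM in Limch1_OE, against 1141, 967 and 1004 FPKM in Vector. In the values as listed it stood above mt-Co2 in every Limch1_OE library and below it in every Vector library. A nuclear copy of mt-Co2, Gm28661, was listed at 0.990 to 0.997 times the mt-Co2 level, and mt-Cytb has no such copy. The order of these 2 genes therefore depends on how reads that match both places were divided. The mt-Cytb part of the mitochondrial mRNA, which depends on the same division of reads, was 8.84, 8.23 and 8.22% in Limch1_OE, against 5.38, 5.29 and 5.47% in Vector.

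Complex IV, cytochrome c oxidase, takes its 3 catalytic-core subunits from mt-Co1, mt-Co2 and mt-Co3, and these did not move alike. mt-Co1 (ENSMUSG00000064351, chrM:5328-6872, plus strand) was the most abundant mRNA, at 10670, 7240 and 7533 FPKM in Limch1_OE, against 8684, 7205 and 7429 FPKM in Vector. Its groups overlapped, and its log2 fold change of 0.11 (SE 0.15, adjusted p = 0.612 in limma) became -0.07 without Limch1_OE replicate 1. mt-Co3 was at 1899, 1649 and 1620 FPKM in Limch1_OE, against 1087, 1034 and 1088 FPKM in Vector, and rose by 0.68. mt-Co2 rose by 0.69. The sum of mt-Co2 and mt-Co3 was 1.62 times as high in Limch1_OE, at 3873 ± 618 FPKM in Limch1_OE, against 2384 ± 123 FPKM in Vector (n = 3 each, SD). The sum over the whole complex overlapped between the groups (exact permutation p = 0.3).

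For complex V, the ATP synthase, the membrane subunits encoded by mt-Atp8 and mt-Atp6 lie on a shared mRNA whose reading frames overlap. mt-Atp8 was at 4317, 3535 and 3558 FPKM in Limch1_OE, against 2483, 2342 and 2149 FPKM in Vector, and rose by 0.71, beside 0.65 for mt-Atp6. Under quantile normalization the mt-Atp8 log2 fold change was 0.29, the mt-Atp6 log2 fold change 0.37 and the mt-Co2 log2 fold change 0.39, with the calls kept. The ratio of mt-Atp8 to mt-Atp6 was 1.418, 1.458 and 1.495 in Limch1_OE, against 1.404, 1.418 and 1.369 in Vector, so that the lowest Limch1_OE library and the highest Vector library all but touched. The other pair on a shared mRNA, mt-Nd4l and mt-Nd4, had ratios of 0.849 ± 0.0221 in Limch1_OE, against 0.809 ± 0.0438 in Vector (n = 3 each, SD), and the groups overlapped. A nuclear copy of mt-Atp6 was listed at 1.07 to 1.08 times its level, mt-Nd4l and mt-Nd4 have copies too, and mt-Atp8 has none of this kind. The size of both ratios therefore depends on how reads that match both places were divided.

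Ratios within a library are free of the library's total. mt-Cytb stood at 0.289, 0.283 and 0.278 of the mt-Co1 level in Limch1_OE, against 0.131, 0.134 and 0.135 in Vector. The means were 0.283 ± 0.00517 in Limch1_OE, against 0.134 ± 0.00197 in Vector (n = 3 each, SD, exact permutation p = 0.1), a ratio of 2.12, and Limch1_OE replicate 1, which stood apart in level, did not stand apart in this ratio. The share of mt-Co1 in the mitochondrial mRNA was 30.6, 29.1 and 29.6% in Limch1_OE, against 41.0, 39.4 and 40.5% in Vector. The highest Limch1_OE library thus lay below the lowest Vector library. Of the nuclear copies described below, that of mt-Co1 was listed at 0.117 to 0.124 times its gene. Those of other mRNAs in the sum were listed at 0.736 to 1.08 times theirs. The size of the mt-Co1 share therefore depends on how reads that match both places were divided.

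**Figure D2:**
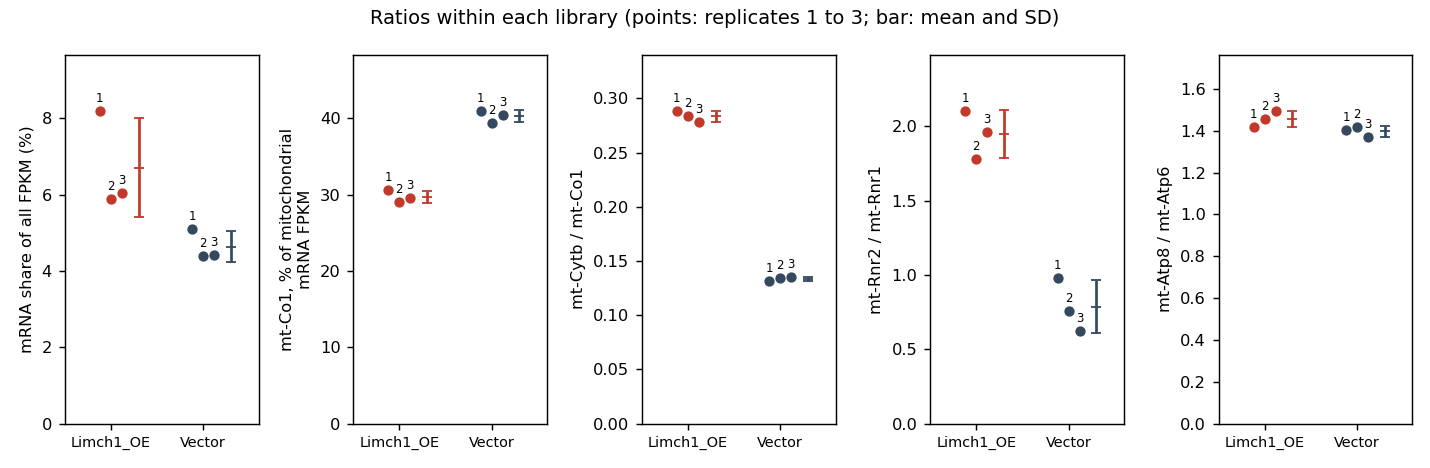
Values of each library (points, numbered by replicate) for Limch1_OE on the left and Vector on the right, with the mean and SD as bars, on linear axes from 0, for the mRNA share of all FPKM, the mt-Co1 share of mitochondrial mRNA and 3 ratios. The mt-Cytb to mt-Co1 ratio lies near 0.283 in Limch1_OE, against 0.134 in Vector, mt-Rnr2 to mt-Rnr1 lies above 1.78 in all Limch1_OE libraries and below 0.98 in all Vector libraries, and mt-Atp8 to mt-Atp6 differs least of the 3.

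To ask which mRNAs differed from the mitochondrial mRNAs as a whole, each library was scaled to the same sum of the 13 mRNAs and the fit over all genes was repeated. On that scale 56.6% of all tested genes were called, 0.844% higher and 55.7% lower. mt-Cytb (0.65, SE 0.19, adjusted p = 0.00372 in limma) and mt-Nd2 (0.46, SE 0.20, adjusted p = 0.0414 in limma) were called higher than the sum, mt-Co1 lower (-0.44, SE 0.17, adjusted p = 0.0205 in limma), and the other 10 were not called. Scaling by a single sum gives all genes a shared deviation in each library, so these SEs rest on a spread common to the genes. The sum includes mt-Co1, which averaged 29.7% of it in Limch1_OE and 40.3% in Vector. All other mRNAs lay above 0 on this scale, from 0.10 for mt-Atp6 to 0.65 for mt-Cytb. Their values thus partly restate that mt-Co1 did not rise with them. The calls of mt-Co1 and mt-Nd2 held when Limch1_OE replicate 1 was left out and ended when any of the other 5 libraries was, whereas the mt-Cytb log2 fold change relative to the mitochondrial mRNA sum kept its call each time, at an adjusted p of up to 0.0473. None of the 3 calls held without the filter on low values. With the nuclear copies described below added to their genes, 1 mRNA was called higher than the sum, in place of 2, and 1 lower. The calls on this scale thus depend in part on how reads that match both places were divided.

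The rRNAs of the mitochondrial ribosome lie at the start of the plus-strand precursor, and of them 1 fell and 1 did not pass. mt-Rnr1, the small-subunit 12S rRNA (ENSMUSG00000064337, chrM:70-1024), was at 125, 144 and 139 FPKM in Limch1_OE, against 332, 238 and 264 FPKM in Vector. It fell by 1.01 on the log2 scale (SE 0.11, adjusted p = 2.49e-04 in limma), and the groups did not overlap. mt-Rnr2, the large-subunit 16S rRNA (chrM:1094-2675), was at 263, 257 and 272 FPKM in Limch1_OE, against 325, 181 and 164 FPKM in Vector. It changed by 0.31 on the log2 scale (SE 0.21, adjusted p = 0.287 in limma), and 1 library decided that outcome, since without Vector replicate 1 it was 0.61 with an adjusted p of 4.78e-04.

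The 16S and 12S rRNAs moved unequally. mt-Rnr2 stood at 2.10, 1.78 and 1.96 times mt-Rnr1 in Limch1_OE, against 0.979, 0.760 and 0.621 times in Vector (exact permutation p = 0.1). As a percentage of the mRNA sum, both rRNAs together were at 1.11, 1.61 and 1.61% in Limch1_OE, against 3.10, 2.29 and 2.33% in Vector, without overlap. Library protocols commonly remove rRNA or select poly(A) RNA, and the sources used here name neither step. Of 3 tested nuclear noncoding RNAs, 1 fell and 2 rose. Rn7sk, which lacks a poly(A) tail, fell, at 7.44, 8.69 and 7.37 FPKM in Limch1_OE, against 22.02, 13.4 and 12.7 FPKM in Vector. Malat1 and Neat1, described below, went the other way from mt-Rnr1, by 0.96 and 1.17 on the log2 scale. The part of library making in the rRNA difference was not tested.

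**Figure D3:**
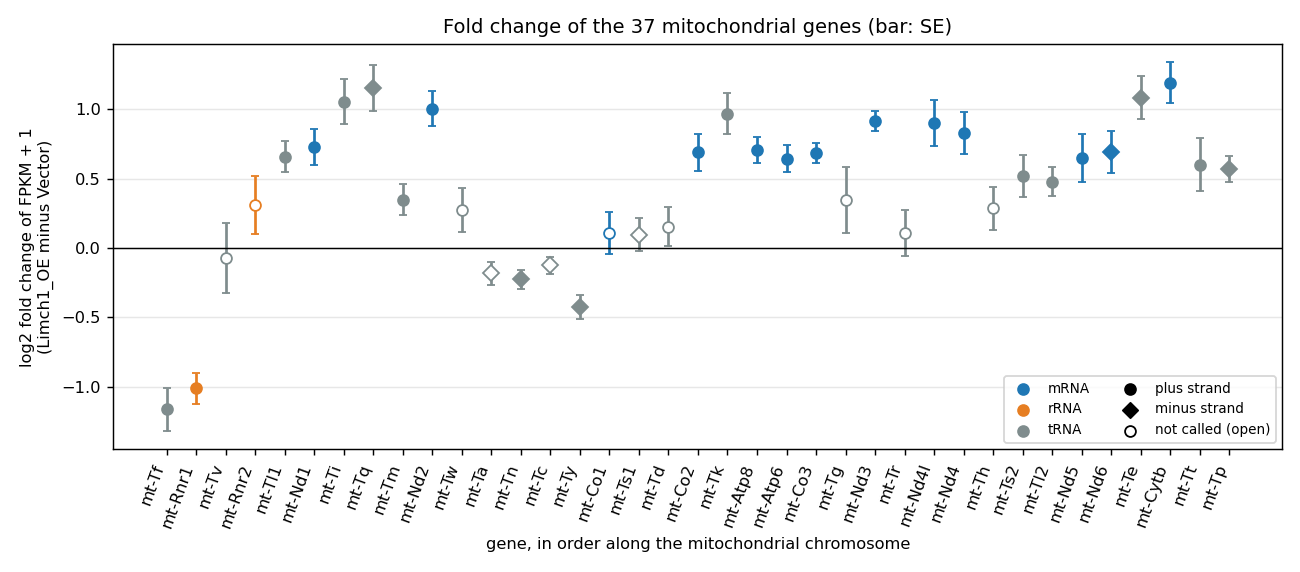
Log2 fold change (Limch1_OE minus Vector, bar: SE) of all 37 genes in their order along the chromosome, by RNA class (colour) and strand (circle: plus, diamond: minus), with open symbols for genes that did not pass the test. The lowest values sit at mt-Tf and mt-Rnr1, a second low stretch runs from mt-Ta to mt-Td around mt-Co1, and the highest mRNA value is mt-Cytb near the end of the plus-strand genes.

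All 22 tRNA genes were listed, at levels between 0.777 FPKM for mt-Tf and 475 FPKM for mt-Tl1 as means in Limch1_OE. Of these, 10 rose, 3 fell and 9 did not pass, beside 20.2% of all tested genes higher and 14.4% lower. The part that fell was thus near the share over all genes. Mature tRNAs are shorter than the fragments of most mRNA libraries, so a value can stem from uncut precursors or from fragments of the neighbouring gene, which was not tested. By strand, 7 of 14 on the plus strand rose and 1 fell (mt-Tf), and 3 of 8 on the minus strand rose and 2 fell. Since the use of strand is not known, minus-strand tRNAs and the plus-strand precursor opposite them cannot be told apart.

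**Figure D4:**
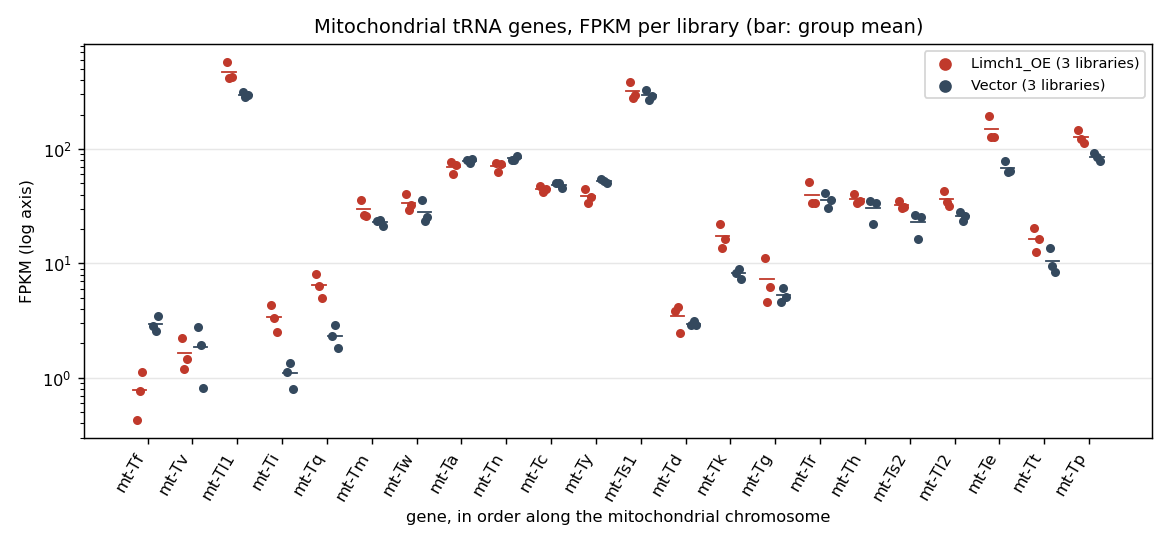
FPKM of the 22 tRNA genes in each library, on a log axis, in gene order, with Limch1_OE in red on the left of each pair, Vector in grey-blue on the right and a bar at each group mean. mt-Tl1 and mt-Ts1 carry the highest levels in both groups, mt-Te is higher in all Limch1_OE libraries, and mt-Tn and mt-Ty are lower in them.

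The sequences below are those of the tRNA genes that moved furthest, and of the minus-strand cluster in front of mt-Co1, from the GENCODE M21 transcripts (mm10). They are written 5′ to 3′ on the strand of the gene, with the anticodon in capitals. A script located each anticodon as the expected triplet after a T and before a purine.
mt-Tf (Phe, chrM:1-68, plus strand): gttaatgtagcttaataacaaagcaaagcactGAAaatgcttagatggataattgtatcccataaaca
mt-Ti (Ile, chrM:3706-3774, plus strand): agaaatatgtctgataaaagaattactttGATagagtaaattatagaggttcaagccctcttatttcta
mt-Tq (Gln, chrM:3772-3842, minus strand): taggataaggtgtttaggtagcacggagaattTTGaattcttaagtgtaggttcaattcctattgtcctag
mt-Ta (Ala, chrM:5018-5086, minus strand): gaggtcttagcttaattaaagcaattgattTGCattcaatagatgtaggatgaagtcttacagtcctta
mt-Tn (Asn, chrM:5089-5159, minus strand): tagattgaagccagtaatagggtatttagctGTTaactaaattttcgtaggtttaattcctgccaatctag
mt-Tc (Cys, chrM:5192-5257, minus strand): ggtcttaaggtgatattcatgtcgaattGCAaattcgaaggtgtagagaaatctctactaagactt
mt-Ty (Tyr, chrM:5260-5326, minus strand): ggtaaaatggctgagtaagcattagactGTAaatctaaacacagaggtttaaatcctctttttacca
mt-Te (Glu, chrM:14071-14139, minus strand): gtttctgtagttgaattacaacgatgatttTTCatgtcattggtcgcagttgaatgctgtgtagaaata

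The cluster mt-Ta, mt-Tn, mt-Tc and mt-Ty lies directly upstream of mt-Co1, and none of its members rose. mt-Ty was at 44.9, 34.1 and 38.4 FPKM in Limch1_OE, against 54.5, 52.5 and 50.8 FPKM in Vector, and fell by 0.43 (SE 0.09, adjusted p = 0.00684 in limma). mt-Tn fell by 0.23 (adjusted p = 0.0366 in limma, between 0.0233 and 0.117 over the alternatives). mt-Ta (-0.18) and mt-Tc (-0.13) did not pass. The 4 genes summed to 244, 200 and 229 FPKM in Limch1_OE, against 265, 259 and 266 FPKM in Vector, without overlap (exact permutation p = 0.1). mt-Ts1, which overlaps the last 3 bases of mt-Co1 on the other strand, had the second highest tRNA level and a log2 fold change of 0.10 (adjusted p = 0.569 in limma), beside 0.11 for mt-Co1. On the scale of the mitochondrial mRNA sum, where 55.7% of all tested genes were called lower, the 4 cluster members were too, at -0.72 for mt-Ta, -0.77 for mt-Tn, -0.66 for mt-Tc and -0.96 for mt-Ty.

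Of the tRNAs that rose, mt-Te had the highest fold change among those above 10 FPKM in every library. It directly follows mt-Nd6 in the annotation order, on the same strand, and was at 193, 127 and 127 FPKM in Limch1_OE, against 79.05, 62.5 and 64.5 FPKM in Vector (log2 fold change 1.08, SE 0.16, adjusted p = 0.00121 in limma). mt-Te stood at 0.188, 0.188 and 0.183 of mt-Nd6 in Limch1_OE, against 0.145, 0.140 and 0.139 in Vector, without overlap. On its other side, mt-Te ends at chrM:14139 and mt-Cytb begins at chrM:14145 on the plus strand. mt-Cytb rose by 1.19 and mt-Nd6 by 0.70, and the part of fragments from either neighbour in the mt-Te level was not tested. The overlapping, oppositely coded mt-Ti and mt-Tq rose by 1.06 and 1.16 at low levels, where the pseudocount compresses the change (with a pseudocount of 0.1 the mt-Ti log2 fold change was 1.54 and the mt-Tq log2 fold change 1.43), mt-Tq being at 8.14, 6.41 and 4.95 FPKM in Limch1_OE, against 2.31, 2.88 and 1.84 FPKM in Vector. mt-Tk (0.97) and mt-Tl1 (0.66) rose as well. mt-Tl1, which follows mt-Rnr2 without a gap, was at 578, 418 and 428 FPKM in Limch1_OE, against 314, 283 and 295 FPKM in Vector. The remaining tRNAs that rose did so by 0.35 for mt-Tm, 0.48 for mt-Tl2, 0.52 for mt-Ts2, 0.57 for mt-Tp and 0.60 for mt-Tt. The calls of mt-Tm, mt-Ts2 and mt-Tt ended under several alternatives, that of mt-Tl2 ended without the filter on low values (adjusted p = 0.0526), and the mt-Tt libraries overlapped.

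mt-Tf, the first gene of the chromosome, fell, as did its neighbour mt-Rnr1, by 1.16 (SE 0.15, adjusted p = 7.59e-04 in limma). The pseudocount of 1 understates changes at this level, and with a pseudocount of 0.1 the mt-Tf log2 fold change was -1.87. The gene was at 0.43, 0.77 and 1.13 FPKM in Limch1_OE, against 2.83, 2.56 and 3.45 FPKM in Vector. It met the filter through the 3 Vector libraries, with only 1 Limch1_OE library at 1 FPKM, so its call adds no support to the counts. The tRNAs that did not pass beside those named were mt-Tv (-0.07), mt-Tr (0.11), mt-Td (0.15), mt-Tw (0.27), mt-Th (0.29) and mt-Tg (0.34). Across the 22 tRNAs the fold change and that of the nearest mRNA or rRNA gene had a Pearson r of 0.546 and a Spearman rho of 0.288. These genes share libraries and in part fragments, so this is a description.

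For 7 mRNAs the nuclear genome holds a listed copy whose reads cannot be told apart with certainty from those of the mitochondrial gene. A block of pseudogenes on chromosome 1 (mm10 chr1:24611535-24616197, from the outer ends of Gm28439 and Gm29216) holds near-identical copies of mt-Nd4, mt-Nd4l, mt-Nd3, mt-Co3, mt-Atp6, mt-Co2 and mt-Co1, all annotated on the minus strand. The copies of mt-Nd4l, mt-Co3, mt-Atp6 and mt-Co2 match over 294 to 783 bases with no mismatch, and that of mt-Nd4 over 876 of the gene's 1378 bases. Gm28438 (copy of mt-Nd3) and Gm29216 (copy of part of mt-Co1) each differ from the mitochondrial gene by 1 base over 345 and 483 aligned bases. The stretches holding those differences are shown with the differing base in capitals, as T3C in mt-Nd3 and A1066T in mt-Co1, where positions count from 1 at the start of the mitochondrial gene and the mitochondrial base comes first.
mt-Nd3 (chrM:9459-9481, plus strand): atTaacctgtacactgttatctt
Gm28438 (chr1:24613097-24613119, minus strand): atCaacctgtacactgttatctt
mt-Co1 (chrM:6390-6413, plus strand): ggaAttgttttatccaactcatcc
Gm29216 (chr1:24616165-24616188, minus strand): ggaTttgttttatccaactcatcc

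The table gave 5 of these 7 copies values close to those of the mitochondrial gene. Gm28437 was at 1902, 1650 and 1622 FPKM in Limch1_OE, against 1086, 1036 and 1090 FPKM in Vector, between 0.9998 and 1.002 times mt-Co3 in every library. For mt-Nd4l and mt-Co2 the copy lay between 0.990 and 1.004 times the gene, for mt-Atp6 between 1.07 and 1.08 times and for mt-Nd3 between 0.872 and 0.995 times. How the authors' tools divided reads that match both places is not given in the sources used here, so the levels of these mRNAs relative to those without a listed copy of this kind (mt-Nd1, mt-Nd2, mt-Nd5, mt-Nd6, mt-Cytb and mt-Atp8) are uncertain. The copies of the genes that rose also rose, by 0.65 to 1.02. Adding each copy to its gene gave 0.98 for mt-Nd3, 0.68 for mt-Co3 and 0.10 for mt-Co1, with 12 of 13 mRNAs still higher. Gene and copy can hold the same reads divided over 2 places. Their like fold changes could thus be fixed in advance and add no support to those of the genes. Gm29216, at 0.117 to 0.124 times mt-Co1, had a log2 fold change of 0.07 (adjusted p = 0.710 in limma), beside 0.11 for mt-Co1. The less similar copies on chromosome 2, Gm13340 of mt-Co1, Gm13341 of mt-Co2 and Gm13339 of mt-Nd2, averaged 3.22, 2.995 and 0.642 FPKM over the 6 libraries. Gm10221, also looked up as a copy, matched no mitochondrial gene at the identity required and was at 17.3, 18.1 and 19.25 FPKM in Limch1_OE, against 17.45, 13.02 and 16.25 FPKM in Vector.

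**Figure D5:**
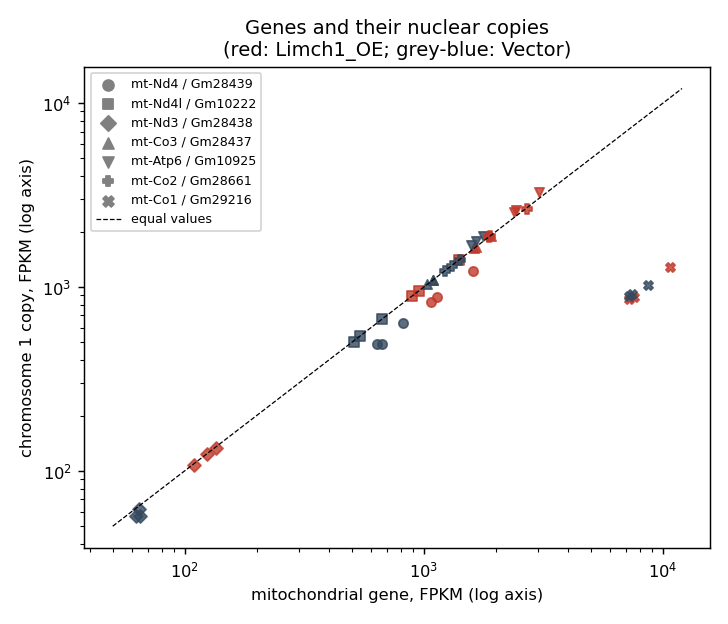
FPKM of 7 chromosome 1 copies against the mitochondrial gene they match, 1 point per library (red: Limch1_OE, grey-blue: Vector), on log axes with a dashed line at equal values. Points of 5 pairs lie on or close to the line, whereas Gm28439, which covers part of mt-Nd4, lies below it and Gm29216 lies near 0.12 of mt-Co1.

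Of 17 tested nuclear genes that transcribe and maintain the mitochondrial genome, 4 rose and none fell, beside 20.2% of all genes higher and 14.4% lower. Their median log2 fold change was 0.08, beside 0.04 over all genes. Tfb2m, the initiation factor of the mitochondrial polymerase, was at 15.9, 14.6 and 14.6 FPKM in Limch1_OE, against 8.61, 9.99 and 11.4 FPKM in Vector, and rose by 0.55 (adjusted p = 0.00251 in limma). The helicase gene Twnk rose by 0.34 and Mterf2, of the mTERF family, by 0.47. The polymerase gene Polrmt (0.12, adjusted p = 0.220 in limma), the DNA packaging and transcription factor gene Tfam (-0.03, adjusted p = 0.763 in limma) and the elongation factor gene Tefm (0.04, adjusted p = 0.690 in limma) did not pass.

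Of 30 genes for mitochondrial RNA processing and modification, 8 rose and 1 fell, beside 20.2% of all tested genes higher and 14.4% lower. The total was near the 34.6% called over all genes, and most of the calls were higher. Fastkd2 and Fastkd1, of the FASTK family of mitochondrial RNA-binding proteins, rose by 0.44 and 0.35, and the RNA granule protein gene Grsf1 by 0.32. Mrm3, a methyltransferase of the 16S rRNA, fell by 0.23, and Fastk, whose short form in mitochondria is needed for mt-Nd6 mRNA, was at -0.02 (adjusted p = 0.863 in limma).

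Among 8 genes of mitochondrial RNA stability and decay, 2 rose and 2 fell, against the same background of 34.6% called. Pnpt1, which encodes the degrading exonuclease and is also known as an interferon-induced gene, was at 19.9, 17.0 and 14.8 FPKM in Limch1_OE, against 32.1, 29.1 and 31.6 FPKM in Vector. It fell by 0.82 (SE 0.09, adjusted p = 3.54e-04 in limma), the largest change among the nuclear genes of transcription, processing, decay, translation and the complexes listed here. The partners Lrpprc and Slirp, whose proteins form a complex that stabilises mitochondrial mRNAs, went opposite ways. Lrpprc rose by 0.27 (adjusted p = 0.00398 in limma), whereas Slirp, at 2.08 ± 0.170 FPKM in Limch1_OE, against 2.93 ± 0.309 FPKM in Vector (n = 3 each, SD), fell by 0.35 (adjusted p = 0.0199 in limma). Lactb2, a mitochondrial endoribonuclease, rose by 0.65. Of 19 tRNA synthetases of mitochondria, 5 rose and 1 fell, beside 20.2% of all tested genes higher and 14.4% lower. The total was again near the 34.6% called over all genes. Aars2 (0.34) and Hars2 (0.30) were among those higher, and Gars (-0.18), which also serves the cytosol, was lower.

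The nuclear-encoded partners of the same complexes are read beside 20.2% of all tested genes higher and 14.4% lower. For complex I, 3 of 37 rose and 1 fell, with a median of 0.02, against 7 of 7 mitochondrial subunits higher. Ndufs1, the largest subunit of its NADH-oxidising arm, rose by 0.39, Ndufb10 by 0.21 and Ndufab1 by 0.18, and Ndufa5 fell by 0.33. None of the 4 complex II genes, all nuclear, passed, with values from -0.09 for Sdhb to 0.12 for Sdha. For complex III, 1 of 9 rose (Uqcrh, 0.35) and 2 fell (Cyc1, encoding cytochrome c1, at -0.26, and Uqcrq at -0.15), with a median of -0.15, while mt-Cytb of the same complex rose by 1.19.

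For complex IV, 3 of 11 rose and 3 fell, namely Cox7b (0.38), Cox5a (0.16) and Cox7a2 (0.15) against Ndufa4 (-0.27), Cox7c (-0.20) and Cox6a1 (-0.18). For complex V, 3 of 17 rose and 2 fell, with Atp5mpl (0.50), Atp5g1 (0.29) and Atp5c1 (0.23) higher and Atp5j2 (-0.18) and the catalytic subunit gene Atp5b (-0.18) lower. The counts in these lists depended on the libraries used. Over all nuclear lists of factors, synthetases and subunits, 29 genes rose and 12 fell, and with 1 library left out between 17 and 30 rose and between 4 and 10 fell.

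Malat1 and Neat1, long noncoding RNAs retained in the nucleus, moved in the same direction as the mitochondrial mRNAs. Malat1 was at 91.5, 80.6 and 77.6 FPKM in Limch1_OE, against 40.2, 45.2 and 41.4 FPKM in Vector, and Neat1 at 55.1, 55.0 and 37.2 FPKM in Limch1_OE, against 19.6, 24.1 and 19.5 FPKM in Vector. Their part in the mitochondrial differences was not tested.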

How the data were processed

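RNA sequencing of 6 libraries was deposited as 1 table of FPKM per transcript, printed to 2 decimals, computed by the authors per the file headers. StringTie 2.2.1, featureCounts 2.0.1, STAR 2.7.10, fastp 0.23.2 and build mm10 are listed per the submitters' processing notes. The sources used here give neither the role of each nor the annotation, strand use or handling of multiply mapping reads. Without counts, depth is unknown and no counting interval is printed. Groups and replicate numbers came from the sample titles, because the genotype and cell line labels are numbered consecutively.

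FPKM were summed per gene over listed transcripts. Symbols and coordinates came from GENCODE M21 (mm10), which matched 26033 of 26094 gene identifiers. A gene was tested if 3 or more libraries reached 1 FPKM, using limma 3.58.1 in R 4.3.3 (lmFit, eBayes with trend) on log2(FPKM + 1), Limch1_OE minus Vector, Benjamini-Hochberg adjusted over all tested genes, threshold 0.05. The fit was tested on simulated data. Single values were compared by exact two-sided permutation of the group means (scipy 1.17.1). Nuclear copies were found with blastn 2.17.0 among listed transcripts (at least 95% identity over at least 100 bases, and at least 99% for the copies on chromosome 1).

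The members and lists were chosen with earlier results of these data known. Named genes are every mitochondrial gene, Limch1, the nuclear copies, Malat1 and Neat1, Polrmt, Tfam, Tefm, Fastk, Lrpprc and Slirp, and up to 3 called genes with the largest change in each direction per nuclear list. A gene that this rule would name is not reported here. Other genes (Rn7sk, the chromosome 2 copies and the cell type markers) were named after their values were seen or as markers. Alternatives were another pseudocount (0.1), no filter, quantile normalization, the trimmed mean of M values, scaling to the non-mitochondrial sum, a replicate block and leaving out each library. Adding the copies to the genes and leaving mt-Co1 out of the mRNA sum were chosen after seeing the data.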

Additional observations from a re-analysis of the deposited data

How the results depend on the processing

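The count of mitochondrial mRNAs called higher was 12 of 13, with 10 when no filter on low values was applied and 11 to 12 with 1 library left out, and none was called lower under any alternative run. Of 481 recomputed fold changes of single members, 444 kept their direction and call. Without the filter, 7 members lost their call (mt-Nd5, mt-Nd6, mt-Tm, mt-Tn, mt-Ts2, mt-Tl2 and mt-Tt). Replicate numbers were not read as pairs, since same-numbered libraries did not deviate together over all tested genes (correlations -0.0017, 0.0456 and 0.0592). These correlations do not speak for the members alone, where replicate 1 had the highest mitochondrial mRNA share in both groups. With a replicate block 3808 genes were called in place of 4094, and 12 mRNAs were higher.

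Calls of rRNAs and tRNAs higher fell to 6, in place of 10, with no filter. Relative to the mRNA sum, mRNAs called higher numbered 2, but 0 with no filter, 1 with nuclear copies added, 5 with the replicate block and 1 to 4 with 1 library left out, and mRNAs called lower 1, but 0 with no filter and 0 to 1 with 1 library left out. On that scale rRNAs and tRNAs called higher were 4, but 1 with no filter and 2 to 4 with 1 library left out, and those called lower were 7, but 4 to 9 with 1 library left out. These counts stand beside 0.844% of all tested genes called higher and 55.7% called lower on the same scale. Nuclear list genes called higher were 29, but 16 with no filter and 17 to 30 with 1 library left out, and lower 12, but 7 and 4 to 10. Scaling by the trimmed mean of M values called 1907 of 3950 genes higher. The cause of these shifts was not tested.

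Directions turned for members near 0. The log2 ratio of mt-Nd6 was -0.048 against the median of the 12 plus-strand mRNAs. With 1 library left out, the mt-Tv log2 fold change ranged from -0.36 to 0.17, the mt-Co1 log2 fold change from -0.069 to 0.21, the mt-Ts1 log2 fold change from -0.049 to 0.19 and the mt-Tr log2 fold change from -0.0948 to 0.21. The mt-Tt log2 fold change relative to the mitochondrial mRNA sum ranged from -0.0106 to 0.22, and on that scale mt-Tg ranged from -0.30 to 0.033, mt-Ts2 from -0.18 to 0.12 and mt-Tp from -0.032 to 0.077. The table gives FPKM and not counts, so what depth allows for low genes such as mt-Tf and mt-Tv is unknown.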
